A study of Homo sapiens with 6 samples.

Results

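Genes of cell junctions were examined in MDA-MB-231 cells, an established human triple negative breast cancer line, after transfection with an siRNA against USP32 (siUSP32) or a control siRNA (siControl) for 48 h. USP32 encodes a ubiquitin-specific protease. Each group held 3 libraries. Whether these are separate cultures is not stated in the labels, so the p-values reflect library-to-library spread that may be technical only. The labels also do not give the number or sequence of the siRNAs. The 9 genes were chosen by symbol from the 17646 listed in each library. Of these, 4 encode proteins that span the membrane (OCLN, F11R, CDH2 and CDH11) and 5 encode cytosolic proteins of the plaque (TJP1, DSP, JUP, CTNNB1 and CTNNA1). Levels are in FPKM (fragments per kilobase, relative to the mapped total), a unit per length meant to let genes be compared with each other. In siUSP32 libraries values moved with transcript length (below), which limits comparisons between genes of unlike length. These are levels of RNA in bulk culture, in which fewer expressing cells and less RNA per cell cannot be told apart, and no protein was measured.

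Neighbouring cells are joined by proteins that cross the membrane and bind those of the next cell, and by plaque proteins on the inner face that tie them to the cytoskeleton. In tight junctions occludin (OCLN) and the junctional adhesion molecule JAM-A (F11R) bind the scaffold ZO-1 (TJP1). In adherens junctions classical cadherins such as N-cadherin (CDH2) and cadherin-11 (CDH11), both typical of mesenchymal cells, bind beta-catenin (CTNNB1) or plakoglobin (JUP), which bind alpha-catenin (CTNNA1) and through it actin. In desmosomes plakoglobin and desmoplakin (DSP) link desmosomal cadherins to intermediate filaments. Beta-catenin is also the nuclear effector of Wnt signalling. Mesenchymal breast cancer lines hold few epithelial junctions.

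Upstream sequence is shown for DSP, the plaque gene that fell most, and for TJP1, the scaffold gene to which OCLN and F11R are compared. Both are from RefSeq on GRCh38.p14 and hold no annotated exon: chr6:7541421-7541574 on the plus strand, 154 bases that end where DSP starts, and chr15:29969050-29969299 on the minus strand, the 250 bases before 1 of the 4 starts of TJP1 in the table. Capitals mark CAGGTG, the E-box bound by repressors of the SNAI and ZEB families, searched on both strands. A match describes the letters and is not evidence of a site in use.
DSP: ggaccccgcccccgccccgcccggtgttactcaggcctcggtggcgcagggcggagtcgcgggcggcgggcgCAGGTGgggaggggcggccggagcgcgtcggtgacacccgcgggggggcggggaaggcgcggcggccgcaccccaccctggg
TJP1: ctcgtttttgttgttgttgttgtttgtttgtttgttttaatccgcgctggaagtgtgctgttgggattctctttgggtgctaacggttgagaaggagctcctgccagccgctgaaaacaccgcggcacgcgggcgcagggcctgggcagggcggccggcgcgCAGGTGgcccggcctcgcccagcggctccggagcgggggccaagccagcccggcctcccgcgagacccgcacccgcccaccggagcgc
Each stretch holds 1 match. Over whole windows of 250 bases before a start, DSP has 2 matches in its 1 window, and the other 3 windows of TJP1 have 0. Both windows of OCLN have 1 match each, and 1 of the 2 windows of JUP has 2. CDH2, CTNNB1 and CTNNA1 have 0 in any of theirs. Unlike the stretches shown, several of these windows hold annotated exon. The windows of OCLN hold 250 and 120 exonic bases, the JUP window with matches 233 and that of CTNNB1 250. Of all 35116 such windows in the table, 17.5% hold at least 1. This is a share of windows, and the genes here have 1 to 4 windows each. The core of the TEAD motif, GGAATG on either strand, had 0 matches in any window of the 7 genes found in the table (OCLN, CDH2, TJP1, DSP, JUP, CTNNB1 and CTNNA1), against 11.9% of all windows. F11R and CDH11 were not analysed here for this.

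USP32 itself was at 1.88 to 2.01 FPKM in siUSP32 libraries, against 7.48 to 8.32 FPKM in siControl libraries, a 3.96-fold lower mean. The vimentin gene VIM, a mesenchymal marker, was above 1000 FPKM in each library (1628.49 to 1715.01 in siUSP32, 1077.36 to 1097.72 in siControl), and the estrogen receptor gene ESR1 was low at 0.09 to 0.33 FPKM in siUSP32 and 0.4 to 0.63 FPKM in siControl. ERBB2 was at 3.54 to 3.64 in siUSP32 and 11.72 to 12.2 FPKM in siControl, and the epithelial gene EPCAM at 3.89 to 4.85 in siUSP32 and 9.61 to 12.09 FPKM in siControl. The blood cell marker PTPRC was at 0.02 FPKM or less. The endothelial marker PECAM1 was at 0.39 to 0.42 FPKM in siUSP32 and 0.96 to 1.1 FPKM in siControl libraries. Of the 12003 genes with a mean of at least 1 FPKM, 74.6% were called different by limma at a Benjamini-Hochberg adjusted p under 0.05, 41.3% as lower and 33.3% as higher in siUSP32, so a call on a single gene is common here. The FPKM of all genes summed to 892602 ± 49360 in siUSP32 and to 689259 ± 4827 in siControl libraries (SD, n = 3 each). Values also moved with transcript length. The log2 deviation from siControl libraries changed by -0.41 to -0.29 per doubling of transcript length in siUSP32 libraries, most in library 2, and by -0.0036 to 0.0054 in siControl libraries. The part of these shifts in the results below was not tested, and values rescaled to equal sums (TPM), quantile normalized or corrected for transcript length are given beside log2 differences whose call they change or whose value they move by over 1.5 times.

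Of the membrane genes CDH11 fell 7.89-fold, F11R 5.98-fold and OCLN 3.90-fold in siUSP32, and CDH2 was too low to be tested. Of the plaque genes DSP fell 2.17-fold, TJP1, JUP and CTNNB1 fell by 1.19-fold to 1.30-fold, and CTNNA1 did not pass the test. CDH11 (Entrez 1009, chromosome 16, 64943753 to 65126112, minus strand, GRCh38) was at 0.97, 0.75 and 1.03 FPKM in the siUSP32 libraries and at 7.25, 7.21 and 7.23 FPKM in the siControl libraries. Every siUSP32 value lay under every siControl value, and the siControl libraries were nearly identical. The annotated transcripts of CDH11 share 254 exonic bases with an overlapping gene of the same strand (AC010533.1). Reads from those bases cannot be told apart. On the log2(FPKM + 1) scale used for the tests, which understates changes of low genes, the difference was -2.11 ± 0.08 (SE, limma adjusted p = 2.48e-08). Of the tested genes 1.92% had a lower log2 difference. The siUSP32 mean of CDH11 was under 1 FPKM, so it passed the filter through siControl only. Its p-value and rank are therefore a description.

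F11R (Entrez 50848, chromosome 1, 160995211 to 161021348, minus strand) was at 1.0, 1.01 and 1.12 FPKM in siUSP32 and at 6.29, 6.15 and 6.29 FPKM in siControl libraries. The groups did not overlap. On the log2 scale it differed by -1.83 ± 0.07 (SE, limma adjusted p = 2.33e-08). The annotated transcripts of F11R share 1853 exonic bases with another gene of the same strand that overlaps it (AL591806.3), so reads from that gene cannot be told apart from its own.

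OCLN (Entrez 100506658, chromosome 5, 69492292 to 69558104, plus strand) was at 0.92, 0.8 and 0.75 FPKM in siUSP32 and at 3.47, 3.1 and 3.06 FPKM in siControl libraries. The lowest siControl value was above every siUSP32 value. On the log2 scale the difference was -1.21 ± 0.08 (SE, limma adjusted p = 8.07e-07), and -0.78 with the length correction. The value is uncertain because a partial copy, the pseudogene OCLNP1, lies on the same chromosome and can share its reads. OCLN also passed the filter through siControl only, so its p-value is a description.

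CDH2 (Entrez 1000, chromosome 18, 27950966 to 28177446, minus strand) was almost silent. Its values were 0.13, 0.14 and 0.12 FPKM in siUSP32 and 0.07, 0.08 and 0.02 FPKM in siControl libraries, far under the filter of 1 FPKM. The siUSP32 values were the higher ones without overlap, but with 2 decimals in the deposited values and unknown read depth such levels are poorly resolved. With no filter the log2 difference was 0.10 (limma adjusted p = 0.0248). Of the pair of cadherins examined, CDH11 was thus the one with a level that could be followed.

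Among the plaque genes DSP fell most. Desmoplakin RNA (DSP, Entrez 1832, chromosome 6, 7541575 to 7586717, plus strand) was at 12.54, 10.75 and 13.69 FPKM in siUSP32 and at 26.27, 27.05 and 27.11 FPKM in siControl libraries. All siUSP32 libraries were low, and the mean was 2.17-fold lower. On the log2 scale it differed by -1.07 ± 0.08 (SE, limma adjusted p = 3.00e-06), with 9.79% of tested genes lower. DSP has the longest transcript of the 9 genes, 9796 bases, and its difference was -0.52 with the length correction (limma adjusted p = 1.68e-05).

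TJP1 (Entrez 7082, chromosome 15, 29699367 to 29968865, minus strand) was at 7.6, 6.37 and 8.42 FPKM in siUSP32 and at 10.11, 9.67 and 9.4 FPKM in siControl libraries. The groups did not overlap, with siUSP32 library 2 the lowest. The mean was 1.30-fold lower in siUSP32 (log2 difference -0.35 ± 0.09, SE, limma adjusted p = 0.00685). The direction turned with the length correction (0.14, limma adjusted p = 0.0646), and quantile normalization ended the call (-0.07, limma adjusted p = 0.450). With TPM it was -0.70.

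JUP (Entrez 3728, chromosome 17, 41754604 to 41786931, minus strand) was at 29.3, 32.17 and 29.58 FPKM in siUSP32 and at 36.61, 36.76 and 37.21 FPKM in siControl libraries. The gap between the groups was small but held in each library. Its mean was 1.21-fold lower in siUSP32 (log2 difference -0.27 ± 0.05, SE, limma adjusted p = 0.00135). With the length correction it did not pass (-0.14, limma adjusted p = 0.0774), and with TPM it was -0.64.

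CTNNB1 (Entrez 1499, chromosome 3, 41194741 to 41260096, plus strand) was at 136.28, 110.04 and 150.94 FPKM in siUSP32 and at 156.19, 156.91 and 157.78 FPKM in siControl libraries. The siControl values were tight, and the siUSP32 values were widely spread, with library 2 far under the other siUSP32 libraries. The mean was 1.19-fold lower in siUSP32, at the edge of the test (log2 difference -0.26 ± 0.10, SE, limma adjusted p = 0.0411). Without siUSP32 library 2 the difference was -0.13 (limma adjusted p = 0.0250). The call was lost without siUSP32 library 1 (limma adjusted p = 0.0645) and without siControl library 1, 2 or 3 (0.0842, 0.0857 and 0.0907). It was also lost with no filter (0.0816), no mean-variance trend (0.0547), array weights (0.0651) and median-ratio scaling (0.0984). The difference was 0.04 with the length correction (limma adjusted p = 0.624), -0.63 with TPM and -0.51 after quantile normalization.

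CTNNA1 (Entrez 1495, chromosome 5, 138610967 to 138935034, plus strand) was at 252.67, 239.4 and 263.94 FPKM in siUSP32 and at 238.36, 245.58 and 241.26 FPKM in siControl libraries. Here the groups overlapped. The log2 difference was 0.06, with a 95% interval of -0.06 to 0.17 (limma adjusted p = 0.316), so a fall as large as that of any other plaque gene lay outside the interval on this scale. Its sign depended on the scaling, at -0.31 with TPM (limma adjusted p = 0.00285), -0.27 under quantile scaling (0.00155) and 0.23 with length corrected (2.63e-04). It passed the test as higher with median-ratio scaling (0.14, limma adjusted p = 0.0242) and without siUSP32 library 2 (0.10, limma adjusted p = 0.0257). A processed pseudogene, CTNNA1P1, can share its reads. The neuronal gene LRRTM2, which overlaps it on the opposite strand, was at 0.02 FPKM or less.

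**Figure D1:**
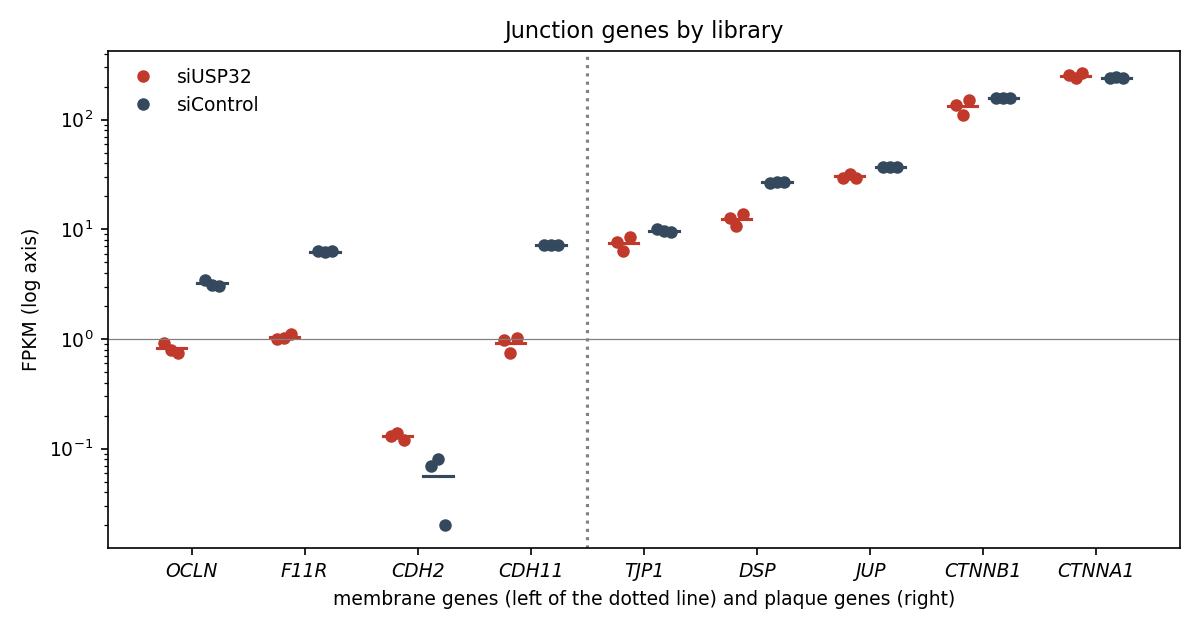
FPKM (log axis) of the 9 junction genes in each library, with siUSP32 points left of siControl points for each gene and bars at the group means (n = 3 each). The grey line marks 1 FPKM, the mean level a gene needed to be tested. OCLN, F11R and CDH11 lie at 0.75 to 1.12 FPKM in siUSP32 and at 3.06 to 7.25 FPKM in siControl libraries, while CTNNB1 and CTNNA1 lie above 100 FPKM in all 6.

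Read together, 3 of the 4 membrane genes and 4 of the 5 plaque genes were called lower, against 41.3% of all tested genes, and 0 were called higher at that filter. The values of those 7 genes did not overlap and were lower in siUSP32, as for 43.2% of all tested genes. CDH2, under the filter and so not among the tested genes, was higher without overlap. Such a rise was seen in 34.6% of tested genes and, with no filter, in 4433 of all 17646 genes, the set that holds CDH2. OCLN and CDH11 had means under 1 FPKM in siUSP32 and passed the filter through siControl only, so these counts are a description. The median log2 difference was -1.83 over the 3 tested membrane genes and -0.27 over the plaque genes, against -0.06 over all tested genes. For each of the 7 called genes the exact permutation p over libraries was 0.1, two-sided, which is the minimum for groups of 3. These p-values are a description too, since the genes were chosen with earlier results of these data known. With TPM all 8 tested junction genes were called lower, against 62.1% of all genes. After quantile normalization 7 were lower and 0 higher, against 30.0% and 43.8% of all genes. With the length correction the 3 membrane genes and DSP were called lower, against 35.1% of all genes, and CTNNA1 was called higher, against 35.1%. These scalings moved the median of all tested genes to -0.39 with TPM, 0.10 under quantile scaling and 0.01 with the length correction. Relative to that median, CDH11 was at -2.04 as deposited, -2.11 with TPM, -1.86 under quantile scaling and -1.67 with length corrected. F11R lay at -1.76, -1.82, -1.57 and -1.53 in the same order, and OCLN at -1.14, -1.16, -0.92 and -0.79. CTNNA1, on the same footing, was at 0.12, 0.08, -0.38 and 0.22.

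**Figure D2:**
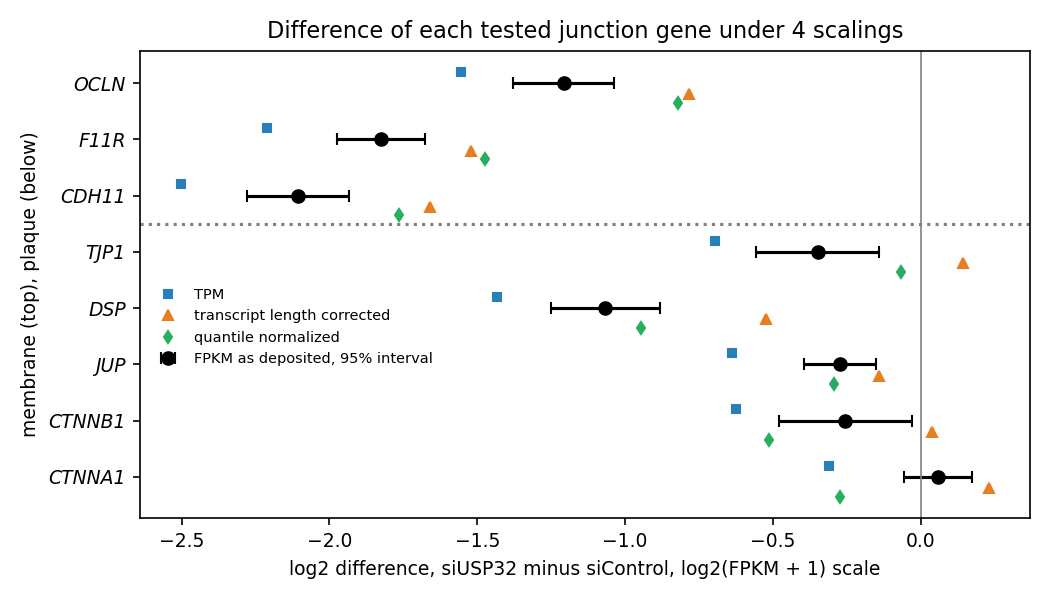
Log2 difference (siUSP32 minus siControl, on the log2(FPKM + 1) scale) of the 8 tested junction genes. Black points with 95% limma intervals are the deposited FPKM; coloured marks are the same difference with TPM, with the transcript length correction and after quantile normalization. The membrane genes OCLN, F11R and CDH11 and the plaque genes DSP and JUP stay left of 0 under each of these, and TJP1, CTNNB1 and CTNNA1 lie on both sides of 0.

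The membrane and plaque genes were also set against each other inside each library, where a common scaling factor has little effect. The mean log2(FPKM + 1) of the 4 membrane genes was 0.77, 0.71 and 0.77 in siUSP32 and 2.04, 2.01 and 1.99 in siControl libraries. For the 5 plaque genes it was 5.37, 5.24 and 5.47 in siUSP32 and 5.74, 5.74 and 5.74 in siControl libraries. The membrane mean minus the plaque mean was therefore -4.61 ± 0.09 in siUSP32 and -3.73 ± 0.03 in siControl (SD, n = 3 each). It was lower by 0.88 in siUSP32 (-0.88 on the log2 scale), and all siUSP32 libraries lay under all siControl libraries. Without the nearly silent CDH2 the difference was -1.34, and with a pseudocount of 0.1 in place of 1 it was -1.25. After quantile normalization, which also leaves out CDH2, it was -0.93. As a share of the summed FPKM of the 9 genes, the membrane genes held 0.643% to 0.684% in siUSP32 and 3.36% to 3.52% in siControl libraries. No p-value is given for these values, because the genes were chosen with earlier results of these data known.

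**Figure D3:**
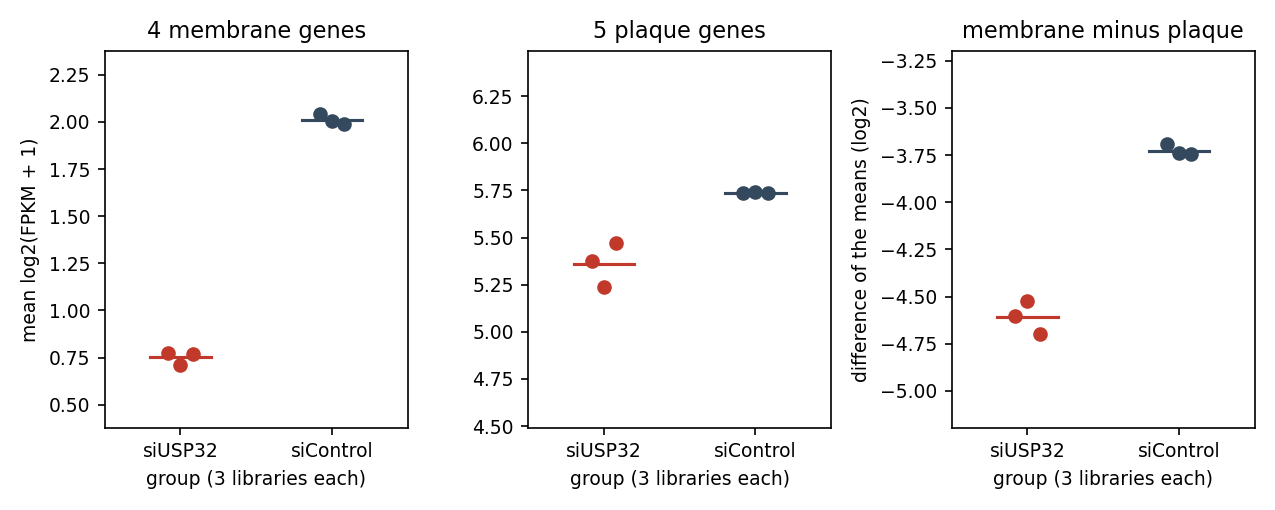
Mean log2(FPKM + 1) of the 4 membrane genes (left), of the 5 plaque genes (middle) and their difference (right) in each library, with bars at group means (n = 3 each). All panels span 2 log2 units. The membrane mean is lower in siUSP32 by 1.26 and the plaque mean by 0.38.

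Membrane genes were then set against the genes of their binding partners, in 6 pairs. F11R was at 13.2%, 15.9% and 13.3% of the FPKM of its scaffold partner TJP1 in siUSP32 libraries and at 62.2%, 63.6% and 66.9% in siControl libraries. OCLN was at 12.1%, 12.6% and 8.91% of TJP1 in siUSP32 and at 34.3%, 32.1% and 32.6% in siControl libraries. Neither pair overlapped between the groups. CDH11 was at 0.692% ± 0.017 of CTNNB1 in siUSP32 and at 4.61% ± 0.031 in siControl (SD, n = 3 each). Relative to CTNNA1 it was at 0.362% ± 0.043 in siUSP32 and 2.99% ± 0.053 in siControl. On the log2(FPKM + 1) scale the 4 ratios differed by -0.86 (OCLN to TJP1) to -2.16 (CDH11 to CTNNA1), lower in siUSP32. Each gave an exact permutation p = 0.1, two-sided, the smallest possible. The pairs are made of genes chosen with earlier results of these data known, so p-values in this paragraph are a description. With the length correction the differences ran from -0.93 (OCLN to TJP1) to -1.89 (CDH11 to CTNNA1). The percentages were not corrected for length. CDH2, whose values are near 0, averaged 0.101% of CTNNB1 in siUSP32 and 0.0362% in siControl, and 0.0518% and 0.0234% of CTNNA1. The log2 differences of these 2 ratios were 0.35 and 0.04 (exact permutation p = 0.1 and 0.5). The sign of the second turned with median-ratio scaling (-0.034) and without siUSP32 library 2 (-0.0042). With TPM the 2 differences were 0.71 and 0.39, and with a pseudocount of 0.1 they were 0.83 and 0.52. Each of these gave an exact permutation p = 0.1.

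**Figure D4:**
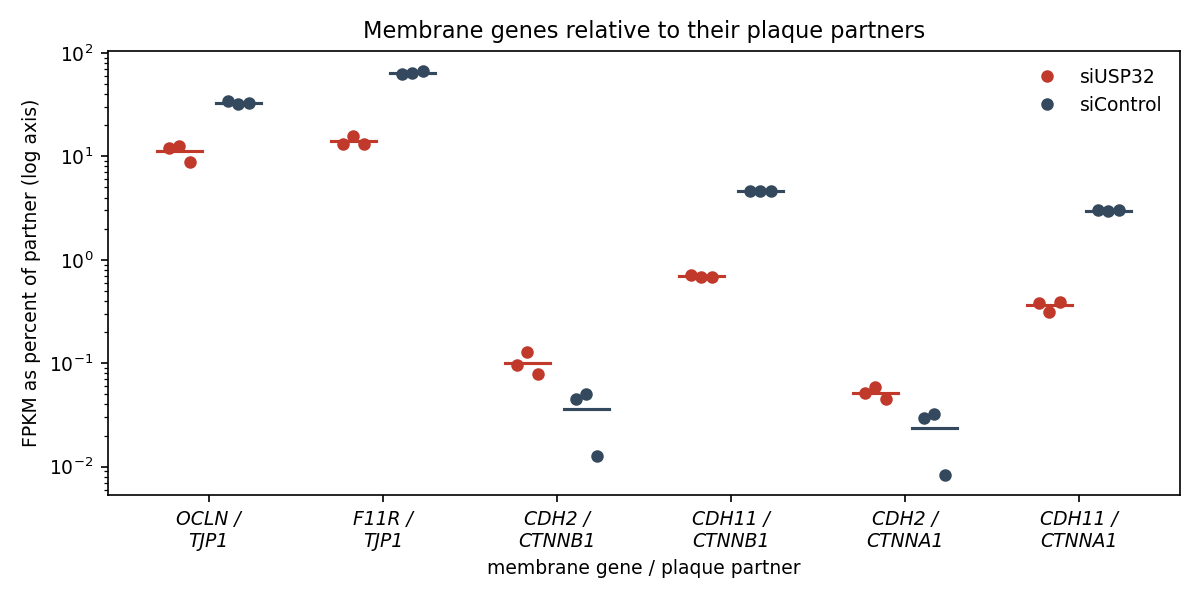
FPKM of a membrane gene as a percentage of its plaque partner in the same library (log axis), for 6 pairs, with siUSP32 left of siControl and bars at the means (n = 3 each). F11R averages 14.1% of TJP1 in siUSP32 and 64.2% in siControl, and CDH11 0.692% and 4.61% of CTNNB1.

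The order of levels differed between the groups in F11R and CDH11. In both groups CTNNA1 was highest, followed by CTNNB1, JUP, DSP and TJP1, with no overlap between neighbours. In siUSP32 libraries F11R (1.04 FPKM), CDH11 (0.917) and OCLN (0.823) followed, and neighbours in this order overlapped. In siControl libraries CDH11 (7.23 FPKM), F11R (6.24) and OCLN (3.21) followed, each apart from the next. CDH2 was last in both groups.

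The products also differ in features of their sequence. By the annotated principal transcripts, the proteins of OCLN, F11R, CDH2 and CDH11 hold 4, 2, 3 and 2 hydrophobic segments (19-residue windows averaging 1.6 or more on the Kyte-Doolittle scale), and those of the 5 plaque genes hold 0. A segment can be a signal peptide as well as a membrane span. Of the 3900 tested genes with such a segment 62.5% were called lower (median log2 difference -0.43), and of the 8059 without one 31.0% (median 0.06). Within genes with a segment, 5.23% had a lower log2 difference than CDH11, 8.77% than F11R and 21.0% than OCLN. Within genes without one, 2.43% were lower than DSP, 21.6% than TJP1, 26.0% than JUP, 26.9% than CTNNB1 and 50.2% than CTNNA1. The 3 tested membrane genes are thus in a class with a median under 0, and DSP lay far down in a class with a median near 0. These shares and ranks use the deposited FPKM and were not computed under other scalings. The difference of DSP was -1.07 as deposited and -0.52 with the length correction. Transcript length was 6857 bases for CDH11, 6438 for OCLN and 4835 for F11R, against 9796 for DSP, 7950 for TJP1, 4735 for CTNNB1, 3756 for CTNNA1 and 3497 for JUP.

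Other junction genes were read from 7 lists written from general knowledge with earlier results of these data known. Of 62 listed membrane genes outside the 4 above, 29 passed the filter, and of these 25 fell, 1 rose and 3 were not called (median log2 difference -1.22). Of 43 listed plaque genes outside the 5 above, 36 passed the filter, and 22 fell, 5 rose and 9 did not pass (median -0.32). Of all tested genes 41.3% fell and 33.3% rose. Among those with a hydrophobic segment 62.5% were called lower, and among those without one 31.0%. For the membrane lists the share over all tested genes is thus not a like comparison. The filter was passed through siControl only by 4 of the membrane and 5 of the plaque genes. With no filter, 33 of the 62 membrane genes were called lower and 2 higher, and 26 of the 43 plaque genes lower and 5 higher, against 33.8% lower and 23.2% higher of all 17646 genes. With the length correction 26 membrane genes were lower and 0 higher (median -0.95), and 14 plaque genes were lower and 11 higher (median -0.03). With TPM the counts were 28 lower and 0 higher for the membrane genes and 30 lower and 2 higher for the plaque genes. Quantile normalization gave 21 lower and 3 higher for the membrane genes (median -0.83) and 14 lower and 9 higher for the plaque genes (median -0.02).

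Among the other tight junction membrane genes 7 of 11 tested fell and 1 rose, against 41.3% and 33.3% of all tested genes. The filter was passed through siControl only by 1 of the 11. Quantile normalization gave 6 lower and 3 higher, and the length correction 9 and 0. CLDN1, which encodes a barrier-forming claudin, was at 6.60 ± 0.88 FPKM in siUSP32 and 30.2 ± 0.60 in siControl (SD, n = 3 each), 4.58-fold lower. JAM3, a relative of F11R, was 4.57-fold lower at 5.71 ± 1.45 FPKM in siUSP32 and 26.1 ± 0.76 in siControl. CLDN15, a claudin that forms cation pores, was the gene that rose, at 5.69 ± 0.78 FPKM in siUSP32 and 4.35 ± 0.56 in siControl. Its log2 difference of 0.32 was 0.68 with quantile normalization. Its call was lost with TPM (0.01), the length correction (0.18), array weights (0.31) and without siControl library 2 (0.24). Of the claudins that did not pass, CLDN3, CLDN7 and CLDN11 (named after their values were seen) were at 6.81 to 9.19, 4.37 to 5.31 and 4.45 to 5.19 FPKM in siUSP32 and overlapped their siControl values. With TPM each was called lower (log2 difference -0.36, -0.27 and -0.34). Quantile normalization called CLDN7 and CLDN11 higher (0.40 and 0.34), and the length correction called CLDN3 and CLDN7 lower (-0.41 and -0.26).

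All 9 tested genes of the other adherens junction membrane list fell, against 41.3% of all tested genes. The filter was passed through siControl only by 2 of them. Quantile normalization called 7 lower and the length correction 8, with 0 higher, against 30.0% and 35.1% of all genes lower. With no filter, of the 19 listed 12 were called lower and 1 higher, against 33.8% and 23.2% of all genes. NECTIN3, a nectin that binds nectins of the next cell, was 6.73-fold lower, at 1.34 ± 0.19 FPKM in siUSP32 and 9.02 ± 0.42 in siControl. PTPRF, the receptor phosphatase LAR, was 5.88-fold lower, at 4.42 ± 0.42 FPKM in siUSP32 and 26.0 ± 0.37 in siControl. E-cadherin RNA (CDH1, named after its values were seen) was under the filter, at 0.01, 0.0 and 0.04 FPKM in siUSP32 and 0.44, 0.48 and 0.5 FPKM in siControl libraries.

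Of 8 listed desmosomal membrane genes other than the 9 examined, 2 passed the filter, DSG2 and PERP. Both fell, against 41.3% of all tested genes. With no filter 4 were called lower and 4 were not called. DSG2, the desmosomal cadherin desmoglein-2, passed the filter through siControl only, so its p-value is a description. It had the lowest log2 difference of the junction list genes past the filter, with an 18.3-fold lower mean, and was at 0.66, 0.86 and 1.01 FPKM in siUSP32 and at 15.17, 14.62 and 16.61 FPKM in siControl libraries (log2 difference -3.16 ± 0.09, SE, limma adjusted p = 5.99e-09). PERP, a desmosomal tetraspan protein, was 4.17-fold lower, at 27.6 ± 0.85 FPKM in siUSP32 and 115 ± 1.7 in siControl. The plakophilin genes PKP1 and PKP2, whose products bind desmoplakin, were 2.76-fold and 1.76-fold lower. PKP1 passed the filter through siControl only, and its log2 difference of -0.90 was -0.52 with quantile normalization and -0.55 with length corrected. In all, 4 of 6 other desmosomal plaque genes fell and 0 rose, against 41.3% and 33.3% of all tested genes. With TPM 5 were lower and 0 higher. Quantile normalization gave 3 lower and 2 higher, as did the length correction. All 7 tested connexin genes, which encode gap junction channels, fell, against 41.3% of all tested genes. Quantile normalization called 6 of these lower and 0 higher, and the length correction all 7 lower. GJA1 (connexin 43) was at 3.95, 3.04 and 4.08 FPKM in siUSP32 and at 15.14, 16.42 and 16.57 FPKM in siControl libraries, 4.35-fold lower, and GJA3 was 4.33-fold lower.

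Plaque genes of tight and adherens junctions moved in both directions, as did tested genes in general. Of 15 tight junction plaque genes 8 fell and 3 rose, against 41.3% and 33.3% of all tested genes. This balance turned with quantile normalization, with 3 lower and 4 higher, against 30.0% and 43.8% of all genes. It was 5 and 5 with length corrected, against 35.1% each way. Of the polarity genes, PRKCI (atypical protein kinase C) was 2.02-fold lower and PARD6B 1.74-fold lower, while PARD6A was at 5.60 ± 0.93 FPKM in siUSP32 and 3.05 ± 0.76 in siControl, a rise whose call was lost with the length correction (log2 difference 0.31). The log2 difference of PARD6A was 0.72 as deposited and 0.44 with TPM, and that of PARD6B was -0.70, against -1.05 with TPM, -0.40 with quantile normalization and -0.42 with length corrected. YBX3, a ZO-1 binding regulator of transcription, rose to 243 ± 8.6 FPKM in siUSP32, against 167 ± 4.0 in siControl. Its log2 difference of 0.54 shrank to 0.17 with TPM, 0.21 with quantile normalization and 0.31 with length corrected, and passed the test under each. Of 15 adherens junction plaque genes 10 fell and 2 rose, against 41.3% and 33.3% of all tested genes. With TPM 12 were lower and 0 higher, with quantile normalization 8 and 3, and with length corrected 6 and 4. Vinculin RNA (VCL), whose product binds alpha-catenin under tension, was 2.56-fold lower, at 19.8 ± 2.7 FPKM in siUSP32 and 50.6 ± 1.7 in siControl, and LMO7 was 2.16-fold lower (log2 difference -0.96, and -0.50 with length corrected). The actin-binding gene LIMA1 was at 60.5 ± 6.1 FPKM in siUSP32 and 47.8 ± 1.1 in siControl and CTNNBIP1, an inhibitor of beta-catenin, at 11.6 ± 0.44 FPKM in siUSP32 and 9.85 ± 0.84 in siControl. Both passed the test as higher, and both signs turned with TPM (-0.04 and -0.12). The log2 difference of LIMA1 was 0.33 as deposited, 0.20 with quantile normalization and 0.49 with length corrected, and that of CTNNBIP1 was 0.22 as deposited and 0.46 with quantile normalization. CTNNBIP1 also lost its call with array weights (0.22) and without siControl library 1 (0.21) or 3 (0.18).

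**Figure D5:**
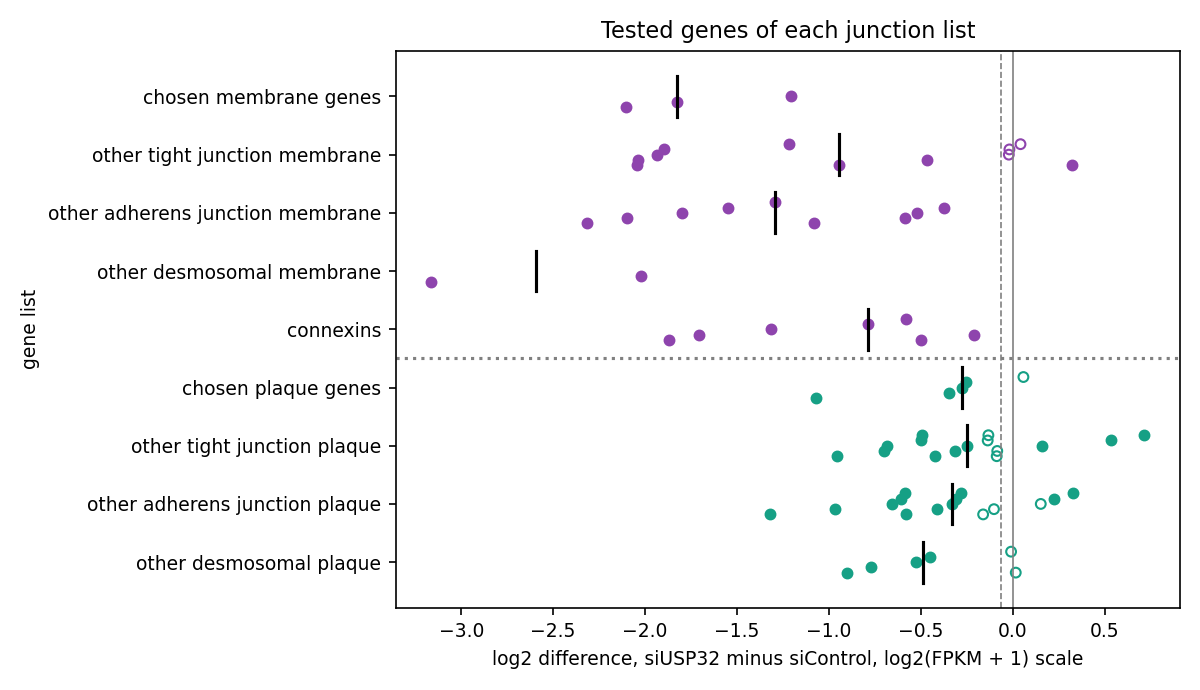
Log2 difference (siUSP32 minus siControl, log2(FPKM + 1) scale) of each tested gene of the junction lists, membrane lists above the dotted line and plaque lists below. Filled points were called by limma and open points were not; black bars are list medians and the dashed line is the median of all tested genes (-0.06). Medians are -1.22 over the other membrane genes and -0.32 over the other plaque genes.

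Because beta-catenin also acts in the nucleus, genes of its degradation and of Wnt output were read from 2 further lists. Of 8 tested destruction complex genes 5 fell, 1 rose and 2 did not pass, against 41.3% lower and 33.3% higher over all tested genes. The filter was passed through siControl only by 1 of these 8 and by 2 of the targets below, ZNRF3 among them. APC, the scaffold that holds beta-catenin for phosphorylation, was 3.24-fold lower, at 1.11, 0.76 and 1.14 FPKM in siUSP32 and 2.96, 3.3 and 3.49 FPKM in siControl libraries. Its log2 difference of -1.09 was -0.70 with quantile normalization and -0.53 with length corrected. FBXW11, a ubiquitin ligase adaptor, was 1.95-fold lower, and the kinase gene GSK3A rose to 46.8 ± 3.4 FPKM in siUSP32, against 39.5 ± 1.1 in siControl. The sign for GSK3A turned with TPM (log2 difference -0.13), and its call was lost with quantile normalization (0.15) and the length correction (0.11). Of 10 tested genes known as beta-catenin targets 6 fell, 2 rose and 2 did not pass. CCND1, the cyclin D1 gene, was 5.72-fold lower, at 41.2 ± 2.3 FPKM in siUSP32 and 236 ± 0.71 in siControl, and ZNRF3, a Wnt feedback inhibitor with a membrane span, was 4.19-fold lower (log2 difference -1.07, and -0.70 with quantile normalization). MYC was higher, at 13.98, 13.58 and 12.29 FPKM in siUSP32 and 4.7, 4.69 and 4.2 FPKM in siControl libraries (log2 difference 1.37 ± 0.07, SE, limma adjusted p = 2.80e-07). TCF7 was at 14.5 ± 1.1 FPKM in siUSP32 and 11.6 ± 0.39 in siControl, a rise of 0.29 on the log2 scale that was 0.48 with quantile normalization and whose sign turned with TPM (-0.05). Many of these genes respond to other pathways too, and the activity of beta-catenin was not measured.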

How the data were processed

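RNA was harvested in Trizol and libraries followed an MGISEQ-2000RS protocol, per the labels' protocols. The authors deposited FPKM with 2 decimals, 1 table per library, per the file headers. Build GRCh38.p13 is named, per the submitters' processing notes. Aligner, counter, annotation, filters, strand setting and the handling of multiply matching reads were not given in the sources used here. FPKM is not a count, so no count model was used, and read depth is unknown, so no counting intervals are given.

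Values were analysed as log2(FPKM + 1) for 12003 genes with a mean of at least 1 FPKM, with limma 3.58.1 in R 4.3.3 (mean-variance trend, no covariate, 2-sided) and Benjamini-Hochberg adjustment over all tested genes. Differences are siUSP32 minus siControl, and folds are ratios of mean FPKM. The fit was tested on simulated data. Gene positions, transcript lengths and proteins came from GENCODE 29 on GRCh38 through Entrez identifiers. A length was found for 99.6% of tested genes. The length correction subtracted a robust loess curve (span 0.5) of each library's deviations on log2 length. It need not use the length the authors divided by.

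Other genes were named by a rule, up to 2 called rises and 2 called falls per list with the largest differences and no overlap, and up to 2 nearest profiles per gene. Members, lists and motifs were chosen with earlier results of these data known. Alternatives were another pseudocount, other filters, scalings and fits, and leaving out each library.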

Additional observations from a re-analysis of the deposited data

How the results depend on the processing

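CDH11, F11R and OCLN kept their direction and call in each of 16 alternatives and DSP in each of 17, with log2 differences of -2.86 to -1.54, -2.47 to -1.38, -1.84 to -0.66 and -1.43 to -0.42. The direction turned with the robust and the least-squares length correction for TJP1 (0.14 and 0.26) and CTNNB1 (0.038 and 0.18), which the least-squares form called higher (limma adjusted p = 0.00614 and 0.0469). With that form JUP was at -0.00017 (limma adjusted p = 0.998). The direction also turned for CTNNA1 with TPM (-0.31) and quantile normalization (-0.27). TPM also turned CTNNBIP1 (-0.12), GSK3A (-0.13), LIMA1 (-0.036) and TCF7 (-0.054). The number of genes called higher was 1716 with TPM against 4001, and the number called lower was 7453 with TPM and 3068 at a minimum of 5 FPKM against 4956. Quantile normalization gave 5253 higher and 3604 lower, and the least-squares length correction 5346 and 3405. The membrane minus plaque difference of -0.88 was -1.25 with a pseudocount of 0.1 and -0.81 with TPM. Without CDH2 it was -1.34. The length corrections and quantile normalization also leave out CDH2, and it was -1.27 with either of the former and -0.93 with the latter. Leaving out a library gave -0.92 to -0.84. It was not computed at a minimum of 5 FPKM, which none of the membrane genes pass. The CDH2 to CTNNA1 ratio was -0.034 with median-ratio scaling and -0.0042 to 0.079 when a library was left out. It was 0.39 with TPM and 0.52 with a pseudocount of 0.1. With the replicate number as a block 8995 genes were called against 8957. Same-numbered libraries did not all deviate together (correlations -0.077, 0.071 and 0.12 for numbers 1 to 3), nor did each correlate best with its own number, so they were treated as unpaired. The least-squares length correction and the setting without CDH2 were chosen after seeing the data. The causes of these changes were not tested. With unknown depth, levels under about 1 FPKM, CDH2 and CDH1 among them, are poorly resolved.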

Other observations

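For each tested junction gene the 2 other genes with the most similar profile were found, by Euclidean distance over the 6 libraries between log2(FPKM + 1) values after subtracting each gene's siControl mean. Nothing on shared function or control follows from this. CDH11 lay nearest to F3, the tissue factor gene (distance 0.055), at 96.9 ± 6.8 FPKM in siUSP32 and 426 ± 6.1 in siControl (SD, n = 3 each), and next to TMEM87B (0.068). F11R lay nearest to the semaphorin gene SEMA3A (0.048), at 1.16 ± 0.056 FPKM in siUSP32 and 6.58 ± 0.095 in siControl, and to PDIA3, a protein disulfide isomerase gene of the endoplasmic reticulum (0.069). OCLN lay nearest to SGPL1 (0.073), which encodes a sphingosine phosphate lyase of the endoplasmic reticulum, and to the exchanger gene SLC9B2 (0.092). DSP lay nearest to AREL1 (0.057) and ARHGAP12 (0.070). TJP1 lay nearest to the importin gene KPNA1 (0.034) and to SPIN3 (0.057), and JUP to the amino acid transporter gene SLC1A5 (0.049) and to MSX2 (0.058). CTNNB1 lay nearest to OGT (0.047), at 34.9 ± 5.0 FPKM in siUSP32 and 41.9 ± 0.72 in siControl, and to EIF4G2 (0.053). CTNNA1 lay nearest to NVL (0.037) and LITAF (0.043), of which neither passed the test. Of the 6 genes nearest to the membrane genes, 5 encode a protein with a hydrophobic segment by the rule above, and of the 10 nearest to the plaque genes 4 do, against 32.6% of tested genes. These neighbours were chosen for differences like those of the junction genes. Of tested genes with a segment 62.5% were called lower, and of those without one 31.0%. The share over all tested genes is thus not a like comparison, and the counts are a description.

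Some junction genes under the filter had values in siUSP32 far under those in siControl. These were picked once their values had been seen and did not enter the test. DSC2 was at 0.05, 0.11 and 0.14 FPKM in siUSP32 and at 1.39, 1.37 and 1.93 FPKM in siControl libraries. DSC3 was at 0.15, 0.09 and 0.11 FPKM in siUSP32 and at 1.41, 1.43 and 1.62 FPKM in siControl libraries. MARVELD2, the tricellulin gene, was at 0.27, 0.22 and 0.23 FPKM in siUSP32 and at 1.5, 1.27 and 1.55 FPKM in siControl libraries. CDH15, M-cadherin, was the opposite case, at 0.71, 0.64 and 0.47 FPKM in siUSP32 and 0.2, 0.24 and 0.13 FPKM in siControl libraries.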
